A study of Mus musculus with 16 samples.

Results

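Hearts in which both Akt1 and Akt2 had been targeted in cardiomyocytes (double knockout, DKO) were compared with hearts in which only Akt1 had been targeted (AKT1 KO). The comparison asks what targeting Akt2 adds when Akt1 is targeted as well. It rests on 8 of the 16 arrays of the study, 4 DKO and 4 AKT1 KO hearts, chosen by their labels, and covers 13725 genes. All animals were male C57Bl/6 mice heterozygous for the MHC-mercremer transgene, a tamoxifen-inducible Cre under the αMHC promoter, which is active in cardiomyocytes. The loxP sites flank exons 6 and 7 of Akt1 and exons 5 and 6 of Akt2, and the AKT1 KO mice were homozygous for the first and the DKO mice for both. Mice of 3 months received 500 µg of 4-OH-tamoxifen a day in 5 injections, and the heart apex was taken 21 days after induction. The AKT2 KO (homozygous for floxed Akt2) and the control hearts (listed with the transgene alone), 4 each, had the same tamoxifen course, age, sex and strain. No group received a treatment beyond the induction. Only cardiomyocytes were targeted, so other cells of the apex still held both genes. An apex is bulk tissue: fewer cells of a type and less RNA per cell cannot be told apart in any value below.

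AKT1 and AKT2 are serine and threonine kinases that act below the insulin and insulin-like growth factor 1 receptors. Receptor substrates recruit PI3-kinase, its lipid product brings AKT to the membrane, and active AKT promotes glucose uptake, protein synthesis through mTORC1 and survival. AKT also phosphorylates the FoxO transcription factors, which holds them out of the nucleus, and AKT1 and AKT2 are the main forms in heart muscle.

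Levels are log2 intensities relative to the 75th percentile of each array, so 0 is that percentile, and the values of 4 arrays are given in the order of replicates 1 to 4. A gene was called when its adjusted p from limma (Benjamini-Hochberg over the 13725 genes, fitted on all 16 arrays) was under 0.05, and only called genes are said to rise or fall. The 75th percentile intensity ran from 492.1 to 809.4 and 43.1% to 54.0% of probes were well above background on an array. The arrays lie on 2 slides, with DKO replicates 1 and 2 and AKT1 KO replicates 2 and 3 on slide 1. Each group always lies in the same column of the slide, so the column and the group cannot be told apart. One DKO array stood apart: replicate 3 lay at 78.6 on the first principal component, against 42.5 to 47.8 for the other DKO arrays and -23.0 to -12.3 for the other 12 arrays. The median SD within a group was 0.248 for the DKO, 0.162 for AKT1 KO, 0.114 for AKT2 KO and 0.0901 for the control, so DKO means carry the larger error. Values without replicate 3 are given beside a gene's own where leaving it out made or ended its call or moved its fold by more than 1.5 times, and beside the counts of the lists it moved most.

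Akt2 itself was lower in every DKO heart. Its brightest probe read 4.51, 4.89, 4.84 and 4.87 in the AKT1 KO hearts (mean 4.78 ± 0.18, SD, n = 4) and 2.83, 2.82, 3.04 and 2.92 in the DKO (2.90 ± 0.10, n = 4). The groups did not overlap, and the drop of -1.87 (SE 0.089; limma adjusted p 3.96e-09) is a 3.66-fold decrease. The other probes fell by 2.25 and 1.17, each with an exact two-sided permutation p of 0.0286, the smallest that 4 against 4 arrays can give. Signal remained in the DKO. The AKT2 KO hearts read 2.54 ± 0.092 and the control 4.91 ± 0.062 on the brightest probe, a change of -2.37. On this probe Akt2 thus fell less from AKT1 KO to DKO than from control to AKT2 KO (difference 0.50, limma adjusted p 0.0101). That difference was tested on the brightest probe only, and the probes do not all share it. The probe that fell by 1.17 read 0.92 in the control and -0.17 in AKT2 KO, against 0.94 in AKT1 KO and -0.23 in the DKO. It did not fall less in the DKO step. Cells that are not cardiomyocytes keep Akt2, and how much of the remaining signal is theirs was not tested. The place of the Akt2 probes relative to the deleted exons was not analysed here.

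Akt1 did not separate the groups. It read 4.86, 5.43, 5.26 and 5.36 in the AKT1 KO and 5.03, 5.07, 5.21 and 5.13 in the DKO, a difference of -0.12 (SE 0.10; limma adjusted p 0.374), and a second probe differed by -0.062. Both groups carry the floxed Akt1, yet their means of 5.23 ± 0.26 and 5.11 ± 0.076 lay near the control mean of 5.13 ± 0.032. The probes' place relative to the deleted exons was not analysed here, so Akt1 does not check the labels. The difference passed the threshold in 6 of 32 alternatives, among them normexp correction, quantile normalization and the authors' values, at -0.30 to -0.24.

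Genes throughout the genome differed between the DKO and AKT1 KO hearts. Of 13725 genes, 6450 were called (47.0%), 3661 higher (26.7%) and 2789 lower (20.3%) in the DKO. The 4 DKO arrays lay wholly above or below the 4 AKT1 KO arrays for 5067 genes (36.9%), of which 4926 were called. Most changes were small: 500 genes were at least 2-fold higher and 606 at least 2-fold lower (8.06% together), and 86 rose (0.627%) and 101 fell (0.736%) at least 4-fold. The median change over all genes was 0.041, so the lists below are read against a background of 47.0% called and a centre near 0. Without DKO replicate 3 the count was 7365, and with the DKO and AKT1 KO arrays alone in the fit it was 4195. With the slide as a block it was 6812, and 5997 within slide 1. Within slide 2, which also holds 2 arrays a group, it was 2715, and calls of list members were 352 in place of 701.

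**Figure D1:**
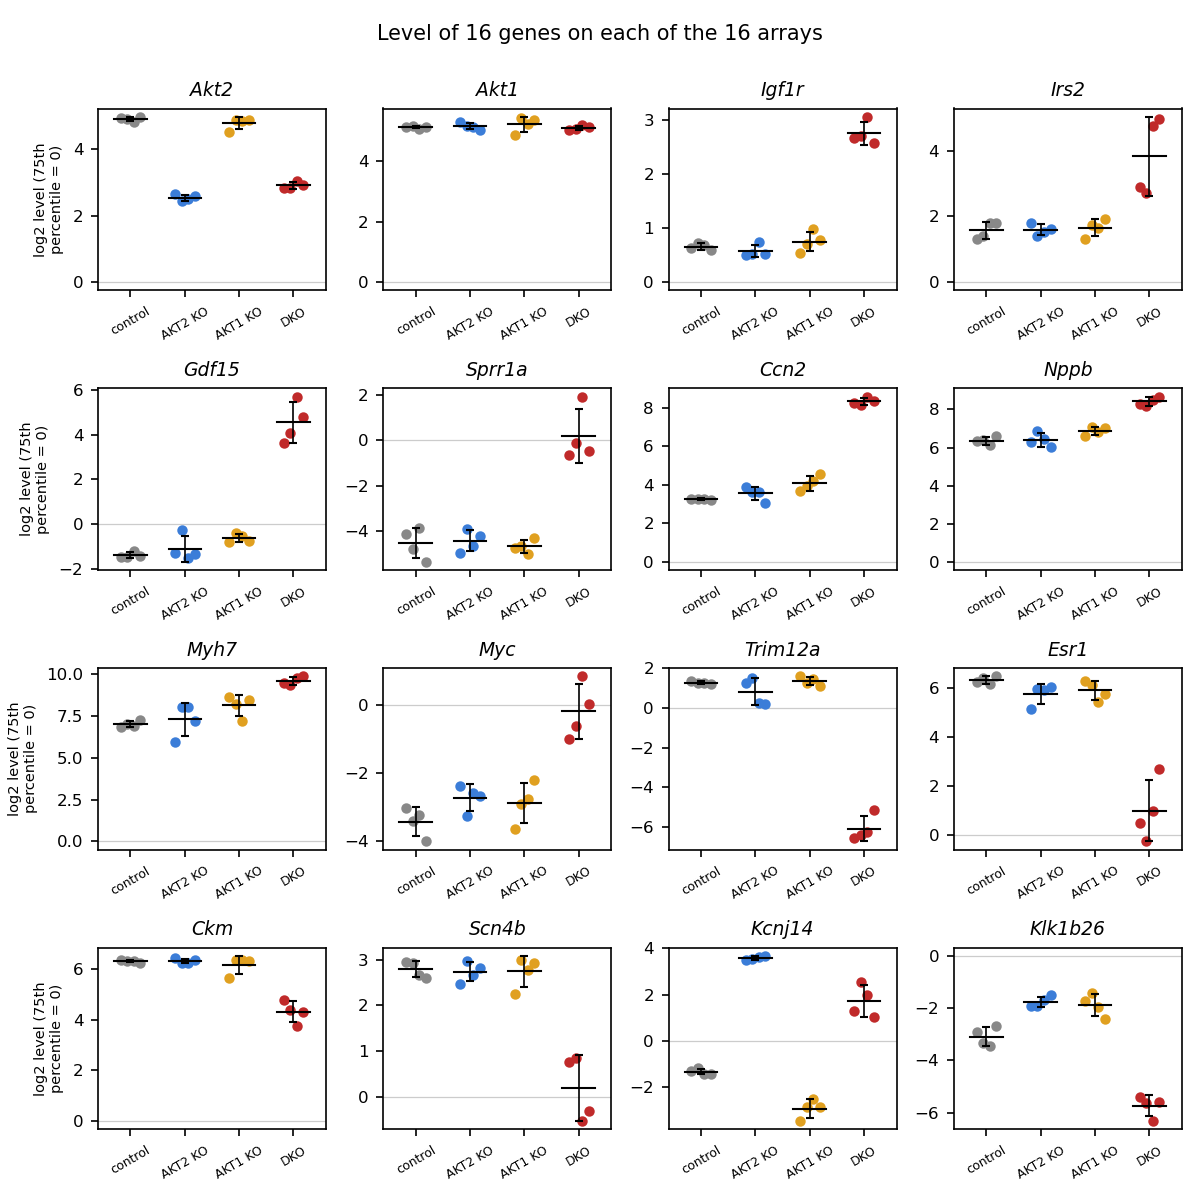
Level of 16 genes (y axis, log2 intensity with the 75th percentile of each array at 0) on each of the 16 arrays in the control, AKT2 KO, AKT1 KO and DKO groups (x axis), with the mean and SD of each group of 4 as bars. Akt2 was low in both groups in which it was targeted, Igf1r, Gdf15, Sprr1a and Ccn2 were higher on all 4 DKO arrays than on the other 12, and Kcnj14 was high in both Akt2-targeted groups.

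Far fewer genes were called with Akt2 targeting where Akt1 was not targeted. In AKT2 KO against control hearts, which share no array with the DKO comparison, 18 genes were called (0.131%), Akt2 among them, and all 18 lie on chromosome 7, the chromosome of Akt2. The count was 37 without DKO replicate 3, which enters the shared estimate of spread, 93 with array quality weights and 3 within slide 2. Both steps were judged against 1 spread per gene shared by all 4 groups, whose median SDs ran from 0.0901 (control) to 0.248 (DKO). The counts of the 2 steps therefore do not rest on each step's own spread. Over the 13725 genes the SD of the log2 change was 0.198 there and 0.636 for DKO against AKT1 KO, and the median absolute changes were 0.08 and 0.328. Across genes, which are not independent replicates, the changes of both steps had a Pearson r of 0.249 and a Spearman rho of 0.276, and r was 0.23 over the 12632 genes off chromosome 7. The difference between the steps was tested as an interaction in the same fit and was called for 3566 genes (26.0%), 2177 with a higher (15.9%) and 1389 with a lower (10.1%) step in the DKO, and 3514 of these were also called in DKO against AKT1 KO. That count was 6155 with array quality weights and 188 within slide 2.

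Of the 18 chromosome 7 genes, 15 were also called in DKO against AKT1 KO, 13 in the same direction. Kcnj14, an inward rectifier potassium channel, rose by 4.90 in AKT2 KO over control and by 4.62 in DKO over AKT1 KO (SE 0.26), and the difference of -0.28 was not called (limma adjusted p 0.619). It read -3.46, -2.85, -2.50 and -2.85 in the AKT1 KO and 1.29, 2.54, 2.0 and 1.02 in the DKO. Its change in AKT1 KO over control, a comparison that shares the AKT1 KO arrays, was -1.59 (limma adjusted p 0.0088). Mamstr, a coactivator of MEF2, fell by 1.25 in the AKT2 KO step and by 1.27 in the DKO step, and Mrps12, a protein of the mitochondrial ribosome, fell by 1.06 and 1.41. Blvrb, a biliverdin reductase, and Gmfg rose by 0.91 and 0.88 in the AKT2 KO step and by 0.84 and 1.26 in the DKO step. Bcat2, the mitochondrial aminotransferase of branched-chain amino acids, rose less in the DKO step (0.95) than in the AKT2 KO step (1.88), with a limma adjusted p of 0.00843 for the difference.

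Klk1b26, a kallikrein, and Lrrc4b, an adhesion protein of synapses, moved in opposite directions in the steps. Klk1b26 rose by 1.34 in AKT2 KO and fell in the DKO from -1.71, -1.43, -1.94 and -2.42 to -5.39, -5.62, -6.33 and -5.58, where no array was well above background, at least 4.79-fold lower. Lrrc4b rose by 1.43 in AKT2 KO and fell by 0.73 in the DKO step (difference -2.16, limma adjusted p 2.54e-05). The other kallikreins Klk1b22 and Klk1b3 rose in both steps. In AKT2 KO, against control hearts with no array well above background, they were at least 7.84-fold and 4.13-fold higher. In the DKO step Klk1b22 rose by 2.34, with 2 of 4 AKT1 KO arrays well above background, and Klk1b3, with none, was at least 2.88-fold higher. DKO replicate 1 was the lowest DKO array in both (-3.70, -1.25, -1.03 and -1.18 for Klk1b22). These kallikreins are near-identical copies, so how their probes share signal is uncertain. Ush1c, Ftl1 and Sertad3 were called in AKT2 KO but not in the DKO step, at 0.56, -0.026 and 0.23 (0.31 for Sertad3 without DKO replicate 3, limma adjusted p 0.00671). Within 10 Mb of Akt2, 116 of 250 genes were called in DKO against AKT1 KO (46.4%, against 47.0% elsewhere), and of the 1093 genes of chromosome 7, 28 (2.56%) were called at least 4-fold, against 0.198% to 2.0% on the other autosomes.

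**Figure D2:**
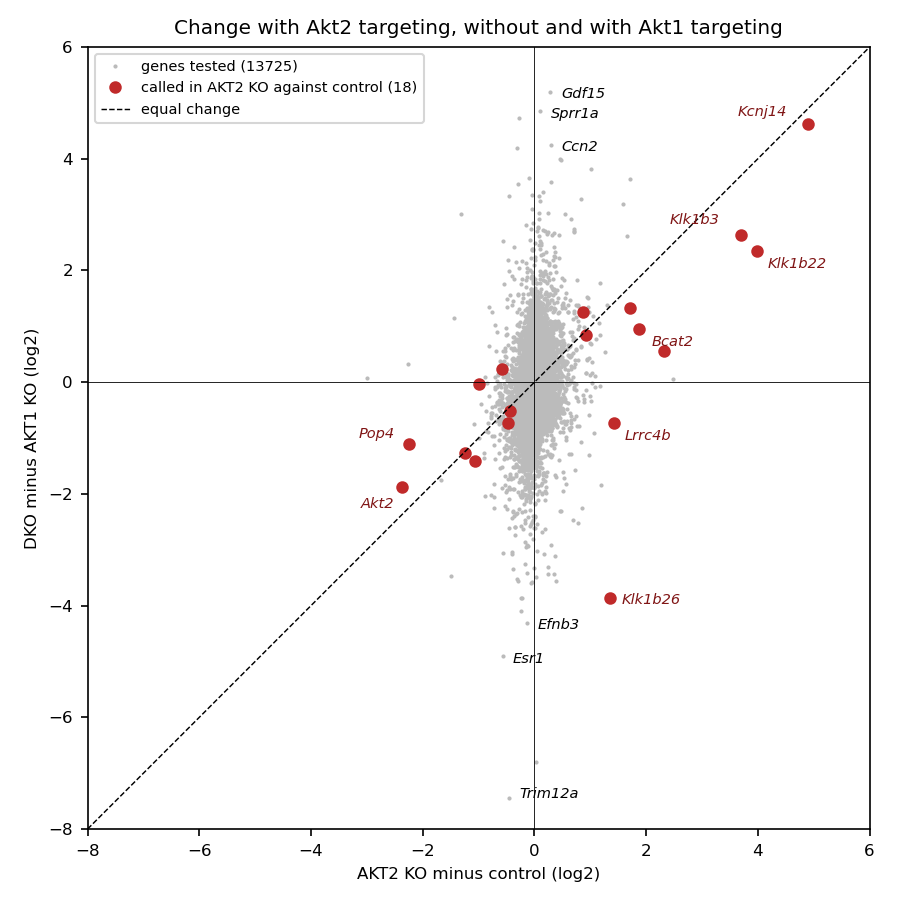
Change of 13725 genes with Akt2 targeting in AKT2 KO over control hearts (x axis, log2) and in DKO over AKT1 KO hearts (y axis, log2). Red points are the 18 genes called in AKT2 KO against control, the dashed line marks equal change, and the cloud is taller than wide (SD 0.636 against 0.198).

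The receptors Igf1r and Insr above AKT rose, and adaptors went both ways. Igf1r, the receptor of insulin-like growth factor 1, read 0.54, 0.71, 0.97 and 0.78 in the AKT1 KO and 2.68, 2.71, 3.06 and 2.58 in the DKO. The groups were far apart, a 4.02-fold rise (log2 2.01, SE 0.11; limma adjusted p 1.43e-08), while its AKT2 KO step was -0.085. Insr, the insulin receptor, rose from -0.51, -0.19, -0.33 and -0.18 to 0.69, 0.83, 0.28 and 0.87 (log2 0.97, SE 0.11; limma adjusted p 1.11e-05). Irs2, an adaptor of both receptors, read 1.30, 1.72, 1.65 and 1.93 in the AKT1 KO and 2.89, 2.71, 4.77 and 4.99 in the DKO. Its DKO values lay in pairs by slide, and its rise of 2.19 was 1.11 within slide 1 and 3.26 within slide 2, called in both. Irs1, the other main adaptor, read 3.57, 3.28, 1.86 and 3.66 in the DKO against 2.29, 2.87, 2.64 and 2.67, where replicate 3 was the lowest of the 8. Its 0.47 was not called (limma adjusted p 0.191) and was 0.88 (adjusted p 6.12e-05) without that array.

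Further members rose: Pik3cb, a catalytic PI3-kinase subunit, by 0.96 (SE 0.076), Shc1, an adaptor, by 0.79, Pdpk1, the kinase that phosphorylates AKT in its activation loop, by 0.71, and Igfbp4, a binding protein of the growth factor, by 0.59. Beside Akt2, those that fell were Grb14 (-0.94), an inhibitory adaptor of the insulin receptor, Pik3r2 (-0.73), a regulatory PI3-kinase subunit, Inppl1 (-0.66), a lipid phosphatase, Them4 (-0.45) and Ppp2r5b (-0.20). Ppp2r5b lost its call in 18 of 32 alternatives, at -0.18 without DKO replicate 3 (limma adjusted p 0.0574). Igf1 passed with 0.36 (limma adjusted p 0.0422) but was lost in 19, at 0.20 (adjusted p 0.0928) without that array. In all, 12 of 35 tested members of the list of AKT kinases and upstream insulin and PI3-kinase signalling rose and 6 fell, a share called (with a list median of 0.11) near the 47.0% of all genes. The difference of the steps was called higher for 9 and lower for 2.

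Genes downstream of AKT were mixed, with 8 of 30 substrates and mTORC1 genes higher and 6 lower, a share called near the 47.0% of all genes. The median of 0.018 turned its sign in 9 of 32 alternatives, and without DKO replicate 3 the counts were 7 and 9. Eif4ebp1, the repressor of cap-dependent translation that mTORC1 inhibits, rose from 4.71, 4.37, 5.03 and 5.28 to 6.20, 6.31, 6.69 and 6.28 (log2 1.52, SE 0.16; limma adjusted p 4.1e-06). Eif4e, the cap-binding protein it holds, fell from 2.56, 2.76, 2.54 and 2.76 to 1.91, 1.83, 1.26 and 1.68 (1.98-fold, limma adjusted p 1.11e-05). Both separated the groups without overlap. Cdkn1a, the cell cycle inhibitor p21, rose from -0.17, 0.58, 0.64 and 0.19 to 1.64, 2.02, 4.19 and 2.24 on its brightest probe, but its other probe differed by -0.24, so its probes disagree. Pfkfb2, the heart form of the enzyme that makes fructose 2,6-bisphosphate and an AKT substrate, read 1.60, 1.20, -0.81 and 1.34 in the DKO against 2.34, 2.65, 2.34 and 2.58. DKO replicate 3 was the lowest, and its fall of 1.65 was -1.10 without that array. Tbc1d4, the AKT substrate that restrains GLUT4 traffic, was at -0.71 (limma adjusted p 0.162), a value that DKO replicate 3 alone set (-0.094 without it). The levels of transcripts give no measure of phosphorylation.

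Members of the FoxO list went both ways, and their share called was near the 47.0% of all genes. Of 31 members 11 rose and 4 fell (median 0.132). Bnip3, a mitophagy receptor, rose from 5.39, 5.74, 5.69 and 5.78 to 6.98, 6.75, 7.32 and 6.92 (limma adjusted p 6.28e-07), and Gabarapl1, an autophagosome protein, from 5.58, 5.82, 5.94 and 5.92 to 7.21, 7.09, 6.84 and 7.16 (adjusted p 2.57e-07). Each separated the groups with a gap larger than the spread within either. Fbxo30 (1.34), Cat (0.80), which encodes catalase, and Trp53inp1 (0.66) also rose, and Irs2, Eif4ebp1 and Cdkn1b (0.49) are counted here too. The muscle ubiquitin ligases that define the atrophy programme were not called: Trim63 differed by 0.16 and Fbxo32 by 0.062. Fbxo32 rested on DKO replicate 3: without it the change was 0.38 and called (limma adjusted p 0.00586). It was 0.53 within slide 1 (adjusted p 0.00499) and -0.41 within slide 2 (adjusted p 0.354). Sod2 (-1.11), the mitochondrial superoxide dismutase, and Klhl24 (-0.58, lost in 18 of 32 alternatives) fell. Among the factors themselves, Foxo6 fell from 0.19, 0.69, 0.46 and 0.37 to -1.18, -1.54, -1.53 and -1.54 (log2 -1.88, SE 0.13; limma adjusted p 1.3e-07), while Foxo1 (-0.012) and Foxo3 (-0.28) were not called.

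The largest measured rise was that of Gdf15, a circulating stress cytokine of the TGF-beta family. It read -0.80, -0.40, -0.56 and -0.77 in the AKT1 KO and 3.62, 4.09, 5.71 and 4.81 in the DKO, a 36.5-fold rise (log2 5.19, SE 0.36; limma adjusted p 9.61e-08). The step in AKT2 KO was 0.29 (adjusted p 1), and the difference of 4.90 was called (adjusted p 1.76e-05). Sprr1a, a small proline-rich protein of stressed muscle and nerve, was not well above background on any AKT1 KO array and read -0.63, -0.13, 1.93 and -0.45 in the DKO, at least 20.6-fold higher. Ccn2, the connective tissue growth factor, read 3.65, 3.94, 4.17 and 4.55 in the AKT1 KO and 8.23, 8.13, 8.59 and 8.37 in the DKO. The DKO values spanned little, so this 19.1-fold rise (log2 4.25, SE 0.19; limma adjusted p 1.38e-09) is among the more precise of the large changes.

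Lgals3, the lectin galectin-3, rose 16-fold, from -0.43, -0.31, -0.03 and -0.33 to 3.48, 3.71, 4.29 and 3.42. Cxcr6, a chemokine receptor of T cells, rose from -2.24, -3.17, -3.53 and -3.0 to 0.03, 0.70, 2.86 and 0.37, with DKO replicate 3 well above the other DKO hearts (log2 3.98, and 3.35 without it). Nmrk2, the muscle nicotinamide riboside kinase of NAD synthesis, rose from 0.11, 1.45, 1.31 and 0.86 to 4.76, 5.71, 3.43 and 5.10, and here replicate 3 was the lowest DKO value. Plcxd2 was at least 8.54-fold higher and Nrip3 at least 4.09-fold, both with no AKT1 KO array well above background. Plekha7, an adherens junction protein, rose from -3.22, -3.57, -4.29 and -3.78 to -0.20, 0.22, -0.42 and 0.06. Grip1, a scaffold protein of synapses, and Tmem202 rose by 3.34 and 3.36, each with 1 of 4 AKT1 KO arrays well above background, and the receptor genes Olfr1500 and Vmn1r225 were at least 3.41-fold and 2.73-fold higher. Sepsecs, an enzyme of selenocysteine synthesis, rose by 3.41, also with 1 such array, but without the filter on dim probes another probe stood for it and gave 0.13 (limma adjusted p 0.687).

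Trim12a, a tripartite motif protein, was among the largest falls. It read 1.59, 1.26, 1.47 and 1.11 in the AKT1 KO and -6.53, -6.40, -6.27 and -5.16 in the DKO, where no array was well above background, so it was at least 45-fold lower. Its other probe fell by 4.29, and its step in AKT2 KO was -0.46, not called. Trim12a lies on chromosome 7 beside related copies, and how these share signal is uncertain. Esr1, the oestrogen receptor alpha, fell from 6.29, 6.12, 5.44 and 5.76 to 0.51, -0.24, 1.0 and 2.70 (30.1-fold; log2 -4.91, SE 0.44; limma adjusted p 1.15e-06), against 6.32 ± 0.15 in the control and 5.75 ± 0.40 in AKT2 KO. The mercremer transgene encodes Cre fused to mutated ligand-binding domains of this receptor, and whether this probe also reads the transgene was not analysed here. Efnb3, a membrane ligand of Eph receptors, fell from 2.75, 3.49, 3.05 and 3.44 to -0.49, -1.32, -1.83 and -0.84 (19.7-fold). Igsf1, an immunoglobulin superfamily glycoprotein, fell from 2.74, 2.80, 2.97 and 3.01 to -0.25, -0.48, -1.63 and -0.33, and its 3 probes gave -3.66 to -3.54.

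Mhrt, a long noncoding RNA that overlaps Myh7 on the opposite strand, fell from 4.74, 3.71, 3.63 and 3.41 to 0.61, 0.18, 0.51 and 0.28 (11.2-fold, limma adjusted p 3.22e-08). Its 4 DKO values lie close together, and all AKT1 KO values are above them. The crystallins Crybb1 (at least 4.18-fold lower) and Cryba4 (log2 -3.52, with 2 of 4 DKO arrays well above background), neighbours on chromosome 5, both fell. Cyp2b10 fell by 3.87 and Cyp2b9 was at least 3.11-fold lower, both cytochrome P450 genes of a cluster of near copies on chromosome 7. Adcy1, an adenylyl cyclase, fell from -0.56, -1.20, -1.95 and -1.30 to -5.87, -4.17, -5.51 and -3.67, with 1 of 4 DKO arrays well above background. Lgals4, a galectin on chromosome 7, fell from 2.90, 1.69, 0.38 and 1.71 to -2.44, -1.15, -0.93 and -2.68, and Mrgprh was at least 3.2-fold lower. Mybphl, an atrial myosin-binding protein, read -1.41, -2.41, -3.84 and -1.59 in the AKT1 KO and -5.06, -6.47, -6.07 and -5.37 in the DKO, where no array was well above background, at least 3.54-fold lower. No control array was well above background either, with a mean of -5.92 ± 0.38.

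Among the largest differences of the steps that could be measured, with arrays well above background in all 4 groups, Gdf15 (4.90) and Ccn2 (3.95) had higher steps in the DKO and Esr1 (-4.34), Efnb3 (-4.17) and Adcy1 (-3.95) lower ones. Limma's adjusted p for these differences ran from 4.4e-07 to 0.000253. The rule for the largest differences also picked Sprr1a, Plcxd2, Trim12a and Klk1b26, for which only the bounds given above hold, and it passed over symbols of clones and predicted genes.

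**Figure D3:**
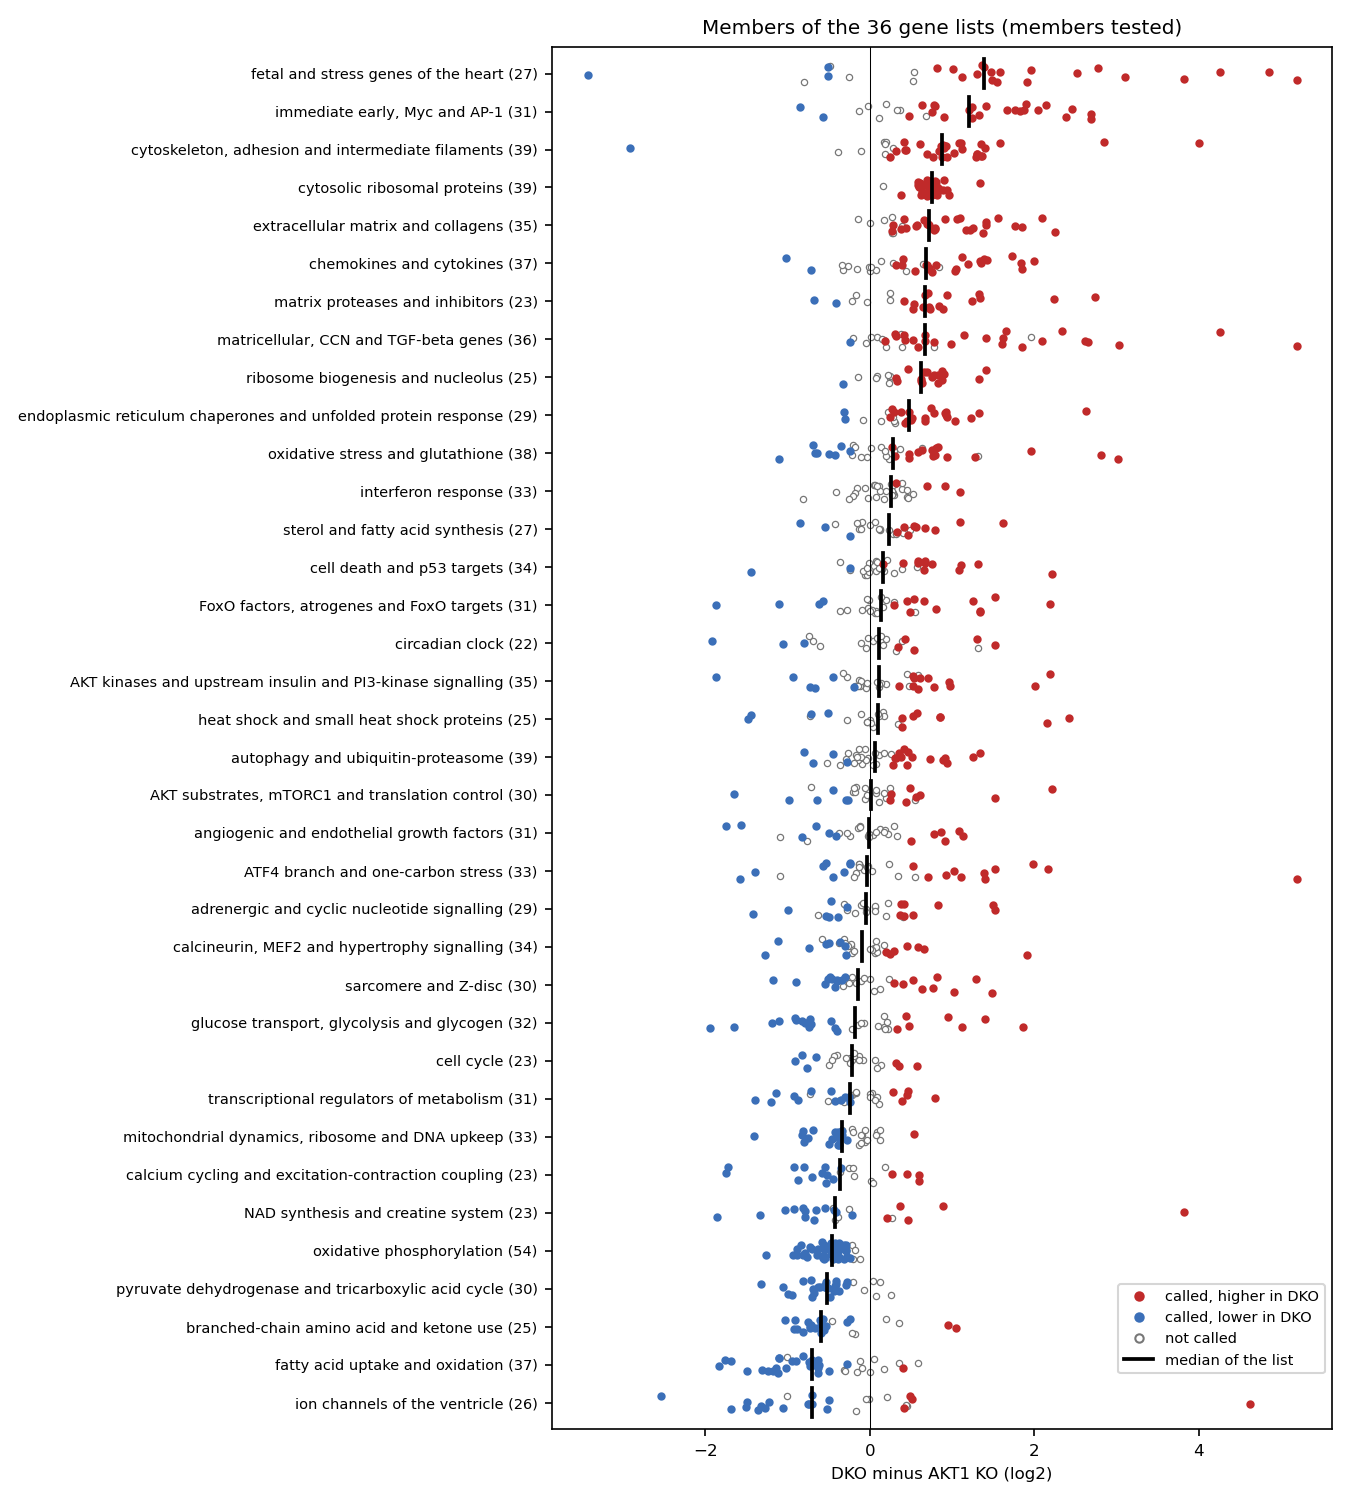
Log2 change in DKO over AKT1 KO (x axis) of each tested member of 36 gene lists (rows, with the number of members tested), ordered by list median (black bar). Red points are members called higher and blue points members called lower. The medians run from -0.70 for ion channels and for fatty acid uptake and oxidation to 1.39 for fetal and stress genes, against 0.041 over all genes.

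Fetal and stress genes of the heart rose with large effects: 19 of 27 were called higher and 3 lower, with a median of 1.39 (18, 3 and 1.25 without DKO replicate 3). The difference of the steps was called higher for 14 and lower for 1. Nppb, the B-type natriuretic peptide, read 6.62, 7.08, 6.81 and 7.0 in the AKT1 KO and 8.31, 8.17, 8.51 and 8.68 in the DKO (2.91-fold, limma adjusted p 6.75e-06). Nppa, the atrial natriuretic peptide, rose from 8.39, 8.16, 8.46 and 8.03 to 9.15, 9.09, 9.41 and 9.45 (adjusted p 0.00666). Its change in AKT1 KO over control, with shared arrays, was 1.47 beside 1.02 for the DKO step, and the control read 6.79 ± 0.29. Myh7, the slow beta myosin heavy chain, rose from 8.64, 8.22, 7.22 and 8.48 to 9.45, 9.38, 9.76 and 9.88 (log2 1.48, SE 0.39; limma adjusted p 0.00665). Myh6, the alpha chain of the adult mouse heart, fell by 0.40 on its brightest probe and by 1.52 on its other. Acta1, skeletal alpha actin and a usual member of this programme, was not called: it read 3.19, 5.12, 5.31 and 3.99 in the AKT1 KO and 3.91, 3.77, 3.55 and 3.16 in the DKO (limma adjusted p 0.203).

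Proteins that bind titin, the I band and the Z-disc were among the larger rises of this list. Ankrd1 rose from 6.67, 6.81, 6.86 and 7.11 to 8.28, 8.27, 8.31 and 8.49 (limma adjusted p 1.07e-06) and Fhl1 from 3.57, 3.87, 3.80 and 3.62 to 6.19, 6.62, 7.90 and 6.54 (adjusted p 4.23e-07). Ankrd2 read -2.64, -1.92, 3.07 and -1.94 in the DKO against -3.84, -3.63, -3.32 and -3.76. DKO replicate 3 was far above the others there, and the change of 2.78 was 1.47 without it. Rcan1, the calcineurin inhibitor that calcineurin itself induces, rose from 4.90, 5.37, 5.20 and 5.26 to 7.13, 7.32, 6.87 and 7.06 (3.76-fold, limma adjusted p 1.17e-07), and Uck2, a uridine kinase, 5.73-fold. Xirp1 (1.30), Xirp2 (1.58), Enah (1.39) and Csrp3 (0.82) rose too. Hmox1, haem oxygenase 1, read 0.94, 1.32, 4.66 and 0.96 in the DKO, with most of its rise of 1.96 in replicate 3 (1.06 without it). Mybphl, Actc1 (-0.51, lost in 4 of 32 alternatives) and Acta2 (-0.51) fell.

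Immediate early, Myc and AP-1 genes were higher for 22 of 31 and lower for 2 (median 1.21; 22, 2 and 0.919 without DKO replicate 3), and their step differed upward from that of AKT2 KO for 19. Egr1, a zinc finger factor of the serum response, read 0.42, 0.32, 0.25 and 0.27 in the AKT1 KO and 2.24, 1.82, 1.93 and 2.32 in the DKO. The AKT1 KO values were themselves low, -1.20 relative to the control mean of 1.51, in a comparison that shares arrays, beside 1.76 for the DKO step. Fos, a subunit of AP-1, read -2.65, -2.68, -2.60 and -2.79 in the AKT1 KO and -0.28, -0.59, 0.11 and -0.12 in the DKO, with the control mean of -1.04 ± 0.78 between them. Junb rose from 1.44, 1.56, 1.84 and 1.54 to 3.24, 3.31, 3.85 and 3.50, Maff from -1.91, -1.41, -1.30 and -1.68 to 0.59, 0.96, 1.90 and 1.01 and Myc, the growth regulator, from -3.63, -2.91, -2.75 and -2.19 to -1.0, -0.60, 0.85 and 0.04 (limma adjusted p 1.04e-07, 4.23e-07 and 5.03e-05). Atf3 read -1.22, -0.57, 1.23 and 1.62 in the DKO against -1.99, -1.76, -1.77 and -1.98, again in pairs by slide (0.87 within slide 1, limma adjusted p 0.0803, and 3.41 within slide 2, adjusted p 0.00319). Mycn (-0.85) and Nr4a3 (-0.57, lost in 18 of 32 alternatives) were the ones that fell. Against the control, the median of this list was -0.233 in AKT1 KO and 0.562 in the DKO, beside the 1.21 of the DKO step.

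Contractile genes went both ways. In the sarcomere and Z-disc list 9 of 30 rose and 11 fell (median -0.139, and 0.059 within slide 2). Tnni3, cardiac troponin I, fell from 8.58, 8.85, 9.09 and 8.88 to 8.41, 8.18, 8.11 and 8.48, the ventricular light chains Myl2 and Myl3 by 0.34 and 0.40, the giant spring protein Ttn by 0.31 and the Z-disc protein Ldb3 by more (-0.90). Des, the intermediate filament desmin, rose from 4.85, 5.38, 5.19 and 5.43 to 6.29, 6.40, 7.04 and 6.29 (limma adjusted p 1.28e-05), and Flnc (1.02) and Synpo2l (0.77) rose with it. Cryab, Tnnc1 and Tcap, at -0.0012, -0.077 and 0.046, were not called.

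Calcium cycling genes were lower for 12 of 23 and higher for 4 (median -0.369). Hrc, a calcium-binding protein of the sarcoplasmic reticulum, fell from 7.53, 7.71, 7.87 and 7.72 to 6.33, 6.07, 5.20 and 6.21 (3.37-fold, limma adjusted p 4.54e-06), and Asph, whose locus also encodes junctin, fell by 1.73. Ryr2, the calcium release channel, fell from 4.55, 4.75, 4.40 and 4.78 to 3.73, 3.66, 3.92 and 3.67 (adjusted p 6.08e-06) and Pln, the inhibitor of the calcium pump, from 6.39, 6.50, 6.32 and 6.60 to 6.02, 5.80, 4.94 and 5.86. Trdn (-0.92) and Casq2 (-0.70) of the same release complex fell too. Atp2a2, the pump SERCA2, fell from 7.65, 7.91, 7.91 and 7.92 to 7.43, 7.33, 6.97 and 7.49 on its brightest probe (limma adjusted p 0.000597), but its 3 probes ran from -0.68 to 0.083. Slc8a1 (0.59), the sodium-calcium exchanger, and Camk2d (0.45) rose.

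Among ion channels of the ventricle 15 of 26 fell and 4 rose, with a median of -0.703 (15, 6 and -0.553 without DKO replicate 3). Scn4b, a beta subunit of the sodium channel, read 2.25, 3.0, 2.77 and 2.93 in the AKT1 KO and 0.76, 0.86, -0.52 and -0.29 in the DKO (5.79-fold lower, limma adjusted p 5.38e-06). Most of the channels that fell carry potassium: Kcnq1, which carries the slow delayed rectifier, went from 2.57, 2.84, 2.74 and 3.01 to 1.57, 1.43, 1.40 and 1.45, and Kcnj5, of the acetylcholine-gated channel, from 3.23, 3.32, 3.04 and 3.29 to 2.16, 1.79, 1.98 and 1.86. Neither overlapped. Kcnj3 (-1.70), Kcnh2 (-1.50), Kcnj2 (-1.49), Kcnj11 (-1.36), Kcnd2 (-1.22) and Hcn4 (-1.06) also fell. Kcnj14 rose, as it did in AKT2 KO. Gja1, the ventricular gap junction protein, was at -0.17 and was not called.

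Genes of mitochondrial energy metabolism were mostly lower. Of 37 genes of fatty acid uptake and oxidation 25 fell and 1, Fabp4, rose (median -0.703; 28, 1 and -0.889 without DKO replicate 3). The rise of Fabp4, 0.40, lost its call in 10 of 32 alternatives. Cpt2, the inner carnitine palmitoyltransferase, fell from 5.61, 6.06, 6.05 and 5.93 to 4.08, 4.17, 4.51 and 3.86 (3.39-fold, limma adjusted p 2.18e-07), and Acads, the short-chain acyl-CoA dehydrogenase, from 4.29, 4.72, 4.94 and 4.79 to 3.29, 3.25, 3.15 and 3.11. Hadh (-1.24), Acaa2 (-1.17), Acadm (-1.11) and Cpt1b (-0.64) were among the rest. The uncoupling proteins Ucp2 and Ucp3, neighbours on chromosome 7, read 0.02, 0.28, 2.38 and -0.11 and -0.10, 0.51, 2.40 and -0.17 in the DKO against 2.23, 2.66, 2.69 and 2.32 and 2.19, 2.56, 2.33 and 2.31. DKO replicate 3 was at the AKT1 KO level in both, and their changes were -2.41 and -2.27 without it, against -1.83 and -1.69 with it. Plin5, the lipid droplet protein of oxidative tissue, showed the same array as the exception (3.98, 4.09, 5.16 and 3.77 against 5.28, 5.78, 5.51 and 5.65). Cd36 (-0.12), Lpl (-0.093) and Pdk4 (0.004), also of lipid use, were not called. Without DKO replicate 3 they were -0.37, -0.13 and -1.0, and Cd36 alone of them was called lower (limma adjusted p 0.00291).

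Of 54 genes of oxidative phosphorylation 48 fell and none rose (median -0.466), although the falls were small and the call of the difference from the AKT2 KO step held for 22 of them. Cox7a1, the muscle form of a cytochrome oxidase subunit, fell from 8.94, 9.08, 9.50 and 9.21 to 8.10, 7.99, 7.53 and 8.04 and Ndufs8 of complex I from 7.04, 7.32, 7.41 and 7.30 to 6.48, 6.32, 6.11 and 6.41 (limma adjusted p 5.2e-06 and 4.1e-06). In the list of pyruvate dehydrogenase and the tricarboxylic acid cycle 24 of 30 fell and none rose (median -0.52), led by Sucla2, a succinyl-CoA ligase subunit, from 4.02, 4.51, 4.45 and 4.42 to 3.24, 3.07, 2.73 and 3.08. Within slide 2 the falls called were 11 and 9. Of 25 genes of branched-chain amino acid and ketone use 18 fell and 2 rose (median -0.594), with Bcat2 and Bdh2 (1.05) the exceptions. Mitochondrial ribosome and maintenance genes fell for 18 of 33 and rose for 1, Tomm20.

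Isoforms of glucose transporters and phosphofructokinases moved in opposite directions. In the list of glucose transport, glycolysis and glycogen 7 of 32 rose and 14 fell (median -0.182). Slc2a1, the basal glucose transporter GLUT1, rose from 0.59, 1.07, 1.22 and 1.04 to 2.87, 2.94, 2.67 and 2.92 (3.65-fold, limma adjusted p 2.77e-08), and Slc2a4, the insulin-responsive GLUT4, fell from 6.52, 6.90, 7.04 and 6.94 to 6.34, 6.19, 4.86 and 6.38 (adjusted p 0.00844; -0.55 without replicate 3). Both separated the groups. The platelet phosphofructokinase Pfkp rose (1.12) and the muscle form Pfkm fell (-1.10). Of the fructose 2,6-bisphosphate enzymes Pfkfb3 rose (0.95) and Pfkfb1 fell, from 0.38, -0.01, -0.10 and 0.09 to -1.87, -1.99, -1.20 and -2.37, as did Pfkfb2. The monocarboxylate transporter Slc16a3 rose by 1.40, while Hk1, Ldha and Eno1 (0.22, -0.069 and 0.17) were not called; Hk1 was without DKO replicate 3 (0.28, limma adjusted p 0.028).

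Creatine kinases fell: Ckm, the cytosolic muscle form, from 5.65, 6.37, 6.36 and 6.31 to 4.78, 4.38, 3.77 and 4.31 and Ckmt2, the mitochondrial form, from 8.21, 8.49, 8.59 and 8.53 to 7.15, 7.23, 6.89 and 7.21 (limma adjusted p 2.57e-06 and 1.12e-07). In the list of NAD synthesis and the creatine system 5 of 23 rose, Nmrk2 first, and 13 fell, with a median of -0.43 that was -0.248 without DKO replicate 3. Of 31 transcriptional regulators of metabolism 5 rose and 12 fell. Rxrg (-1.39), Perm1 (-1.20, and -0.61 without DKO replicate 3), Ppargc1b (-0.87) and Esrra (-0.47) fell, while the coactivator Ppargc1a and the nuclear receptor Ppara were not called at -0.36 and -0.24 (limma adjusted p 0.103 and 0.0803). In lipid synthesis 9 of 27 rose and 3 fell, a share called near the 47.0% of all genes. Without DKO replicate 3 the counts were 14 and 2. Scd1, the stearoyl-CoA desaturase, rose from -1.29, -1.26, -1.42 and -1.20 to 0.31, 0.64, 0.14 and 0.23, and Acly, the citrate lyase that AKT phosphorylates, by 0.56.

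Genes of protein folding in the endoplasmic reticulum rose for 21 of 29 and fell for 2, Atf6 and Herpud1, which lost their calls in 3 and 8 of 32 alternatives (median 0.478; 25, 2 and 0.687 without DKO replicate 3, which lay at 0.126 on the list median against 0.552 to 0.679 for the other DKO arrays). The unfolded protein response acts through ATF6, XBP1 and the kinase PERK. The first of these binds, with NF-Y, the endoplasmic reticulum stress response element, ccaat followed by 9 bases of any kind and ccacg. Promoters of 5 members with that element are shown because this list holds 9 of the 17 tested genes with the element. They are the 250 bases before the start of the RefSeq gene model (GRCm38.p6), written 5′ to 3′ on the gene's strand, with the match on either strand in capitals.
Derl3, chr10:75893148-75893397, plus strand: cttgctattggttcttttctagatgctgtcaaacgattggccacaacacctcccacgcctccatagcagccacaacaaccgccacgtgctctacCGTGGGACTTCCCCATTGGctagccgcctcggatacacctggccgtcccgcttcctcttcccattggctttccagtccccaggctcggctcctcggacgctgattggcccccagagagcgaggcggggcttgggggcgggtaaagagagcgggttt
Pdia6, chr12:17266339-17266588, plus strand: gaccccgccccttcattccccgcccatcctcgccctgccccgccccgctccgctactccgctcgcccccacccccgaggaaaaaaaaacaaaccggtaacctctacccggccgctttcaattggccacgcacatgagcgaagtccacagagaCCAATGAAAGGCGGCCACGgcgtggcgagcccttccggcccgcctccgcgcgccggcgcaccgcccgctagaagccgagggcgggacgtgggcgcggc
Creld2, chr15:88819396-88819645, plus strand: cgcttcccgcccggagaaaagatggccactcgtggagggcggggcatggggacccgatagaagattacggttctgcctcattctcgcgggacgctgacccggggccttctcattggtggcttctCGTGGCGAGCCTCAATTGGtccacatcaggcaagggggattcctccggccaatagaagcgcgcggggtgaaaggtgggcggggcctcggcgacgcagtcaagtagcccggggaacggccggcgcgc
Hspa5, chr2:34771840-34772089, plus strand: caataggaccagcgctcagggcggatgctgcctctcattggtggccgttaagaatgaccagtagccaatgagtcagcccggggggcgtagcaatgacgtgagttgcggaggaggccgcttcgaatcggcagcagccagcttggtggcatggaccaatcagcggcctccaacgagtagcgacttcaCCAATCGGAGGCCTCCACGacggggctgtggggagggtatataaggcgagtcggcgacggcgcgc
Hsp90b1, chr10:86705445-86705694, minus strand: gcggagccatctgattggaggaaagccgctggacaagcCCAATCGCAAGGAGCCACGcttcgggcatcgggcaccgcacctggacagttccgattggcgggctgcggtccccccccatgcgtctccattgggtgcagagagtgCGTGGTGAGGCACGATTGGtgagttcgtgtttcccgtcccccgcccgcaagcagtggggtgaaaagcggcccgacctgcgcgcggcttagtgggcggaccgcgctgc

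The element, searched in the form just given on both strands of the 300 bases around each start, was 1 of 12 motifs searched and was picked for display after its counts were seen. It was found in 9 of the 24 list members that have a promoter in the table (37.5%), in 39 of all 32851 promoters (0.12%), and in 17 of the 10895 tested genes with one (0.156%). The list gathers genes of the unfolded protein response, which acts in part through this element, so the share of the list is no test of the element. Among tested genes the element was in 9 of 2885 called higher (0.312%), in 8 of 5771 not called (0.139%) and in 0 of 2239 called lower. The 9 called higher were Canx, Creld2, Derl3, Hsp90b1, Hspa5, Pdia6, Syvn1, Hnrnpa3 and 1700122E12Rik. Apart from Hnrnpa3 and 1700122E12Rik these are members of the list, so their share mostly repeats the rise of the list. A match is a run of letters and not a measured site. Of the others, the FoxO letters TGTTTAC were in 3.36% of genes called higher, 2.77% of those called lower, 3.36% of those not called and 3.65% of all promoters. The AP-1 letters TGACTCA were in 5.72%, 4.33%, 4.30% and 5.20%, and the E-box CACGTG in 13.7%, 9.11%, 11% and 7.15%. The ETS letters CCGGAAG were in 20.4%, 15.3%, 18.3% and 8.86%, and the MCAT letters GGAATG in 15.2%, 15.1%, 14.6% and 14.66%. A gene was counted when any of its promoters matched, whereas the last share counts single promoters, untested genes included, and is not comparable. Over all tested genes with a promoter the FoxO, AP-1, E-box and MCAT letters were in 3.24%, 4.68%, 11.3% and 14.9%. The remaining 6 were the site of the estrogen-related receptors (0.243% of genes called higher and 0.491% of those called lower), the cyclic AMP response element (3.19% and 3.31%), that of ATF4 (2.88% and 3.13%), that of NRF1 (1.94% and 1.88%), that of SRF (0.0693% and 0%) and the letters TATAAA (10.5% and 11%).

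Of the genes with these promoters, Derl3, which helps to move misfolded proteins out of the reticulum, rose from -4.01, -4.48, -4.41 and -4.23 to -1.48, -1.10, -3.38 and -0.66 (log2 2.63, SE 0.43; limma adjusted p 0.000182), with 1 of 4 AKT1 KO arrays well above background. Pdia6, a disulfide isomerase, rose from 4.13, 4.42, 4.21 and 4.28 to 5.26, 5.36, 4.67 and 5.43 (adjusted p 7.51e-05), and Creld2, a folding factor, from 2.85, 3.20, 2.90 and 3.05 to 4.10, 4.06, 2.90 and 3.92 (adjusted p 0.00823). Hspa5, the chaperone BiP, read 6.22, 6.32, 5.28 and 6.25 in the DKO against 5.51, 5.68, 5.40 and 5.49. In each of these DKO replicate 3 was the lowest DKO value. It lay within the AKT1 KO range for Creld2 and below it for Hspa5. Hspa5 was called at adjusted p 0.0381 but lost the call in 13 of 32 alternatives, and without DKO replicate 3 its change was 0.74 (limma adjusted p 3.56e-05). Hsp90b1, the chaperone GRP94, read 5.77, 5.94, 5.06 and 6.01 against 5.17, 5.29, 5.22 and 5.18, again with DKO replicate 3 below the AKT1 KO range (adjusted p 0.0184, lost in 7 alternatives). Syvn1 rose by 0.26 and Canx by 0.24, a call that Canx lost in 12 alternatives. Calr (0.30) and Dnajc3 (0.30), which also hold the element, were not called, but both were without DKO replicate 3, at 0.47 and 0.35 (limma adjusted p 0.00152 and 0.0253).

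Other members rose evenly on all 4 DKO arrays. Xbp1, the gene of the XBP1 branch, read 4.08, 4.25, 3.98 and 4.21 in the AKT1 KO and 5.23, 5.12, 5.03 and 5.25 in the DKO (2.04-fold, limma adjusted p 6.29e-07). P4hb, the main disulfide isomerase, read 2.64, 2.99, 2.96 and 3.01 and 3.94, 4.17, 4.33 and 4.07 (limma adjusted p 2.49e-07). Sdf2l1 (1.33), Manf (0.94), Selenos (0.93), Sec61a1 (0.91) and Dnajb11 (0.67) rose as well. Ddit3, the factor CHOP of the PERK and ATF4 branch, fell from 0.25, -0.03, 0.06 and 0.07 to -0.51, -0.62, -0.83 and 0.05 (adjusted p 0.00635). That branch was mixed, with 11 of 33 rising and 8 falling (median -0.031, whose sign turned in 5 alternatives). Atf4 rose from 4.48, 4.50, 4.34 and 4.38 to 5.01, 5.16, 5.89 and 5.71 and Psat1, an enzyme of serine synthesis, from -2.15, -1.96, -2.30 and -2.27 to -0.70, -0.39, 1.33 and -0.26. Slc38a2 (1.99) and Chac1 (1.40) rose, while Gpt2, the mitochondrial alanine aminotransferase, fell from 0.92, 1.09, 0.79 and 1.07 to -0.33, -0.43, -1.24 and -0.42, Aldh1l2 fell by 1.40 and Asns (0.026) was not called.

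The heat shock list had 8 of 25 higher and 4 lower, a share called near the 47.0% of all genes. Its inducible HSP70 genes Hspa1a and Hspa1b, near-identical copies, rose from -1.31, -1.12, -1.06 and -0.94 to 0.38, 0.66, 1.12 and 3.1 and by 2.15, with replicate 4 the highest DKO array in both, and Hsp90aa1 rose from 4.36, 4.38, 4.46 and 4.16 to 5.03, 5.12, 5.12 and 5.49. Fkbp4, a cochaperone of HSP90, fell from 2.84, 3.32, 3.17 and 3.14 to 1.89, 1.78, 1.08 and 1.82, and Hspb3 fell by 1.44. In the oxidative stress and glutathione list 16 of 38 rose and 8 fell, with a median of 0.283 that was 0.178 without DKO replicate 3. Gpx3, the secreted glutathione peroxidase, rose from 3.15, 3.49, 3.58 and 3.40 to 6.57, 6.22, 6.44 and 6.48 (8.13-fold, limma adjusted p 1.16e-10), with little spread in either group. Nqo1 (1.28), Txnrd1 (0.94), Srxn1 (0.83) and Gclm (0.80), known targets of the factor NRF2, were among the rises. Gsta2, a glutathione transferase, read -3.37, -2.37, -1.93 and -3.03 in the AKT1 KO and 0.05, -0.27, 0.87 and -0.09 in the DKO, with a control mean of -0.062 ± 0.073: its change in AKT1 KO over control, with shared arrays, was -2.61 beside 2.81. The mitochondrial Sod2, Prdx3 (-0.67) and Prdx5 (-0.64) fell.

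Cytosolic ribosomal protein genes rose together. Of 39, 38 were called higher and none lower (median 0.761; 38, 0 and 0.686 without DKO replicate 3), and for 37 the difference from the AKT2 KO step was called. They ranged from 0.38 for Rplp2 to 1.34 for Rpl3, and only Rps2 (0.16, adjusted p 0.218) was not called. Rpl30 read 5.53, 5.69, 5.60 and 5.64 in the AKT1 KO and 6.33, 6.31, 6.49 and 6.50 in the DKO and Rpl3 5.56, 6.28, 5.72 and 5.51 and 6.92, 6.96, 7.47 and 7.10, with every DKO value above every AKT1 KO value (limma adjusted p 4.88e-07 and 8.31e-06). The list median by array was 0.606, 0.631, 0.944 and 0.855 in the DKO, and these genes have many processed copies, so probes may share signal. Ribosome biogenesis genes rose for 17 of 25 and fell for 1, Polr1a. Rrp12 rose from 2.31, 2.87, 2.65 and 2.75 to 4.01, 4.06, 4.32 and 3.86 and the nucleolar chaperone Npm1 from 3.62, 3.81, 3.80 and 3.86 to 4.58, 4.63, 4.85 and 4.62 (limma adjusted p 9.6e-07 and 4.46e-07).

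Extracellular matrix genes were higher for 28 of 35 and lower for none (median 0.719; 29, 0 and 0.659 without DKO replicate 3). The fibrillar collagens Col1a1, from 2.10, 2.50, 2.32 and 2.24 to 3.45, 3.65, 4.46 and 3.25, and Col3a1, from 3.30, 3.58, 3.56 and 3.39 to 4.60, 4.80, 5.57 and 4.37, separated the groups (limma adjusted p 4.83e-05 and 5.39e-05), with DKO replicate 3 highest. Col5a2 (1.56), Col8a1 (1.77) and Eln (1.22) rose as well, and basement membrane genes rose less or were not called (Col4a1 0.27, Nid1 0.29). Postn, a matricellular protein of activated fibroblasts, read 1.82, 2.29, 4.89 and 1.49 in the DKO against 0.37, 0.65, 0.55 and 0.54, and Lox, the collagen cross-linking oxidase, -0.94, -0.60, 2.88 and -1.09 against -2.25, -2.02, -2.40 and -2.07. Both means lean on replicate 3: their changes of 2.10 and 2.25 were 1.34 and 1.31 without it.

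In the matricellular, CCN and TGF-beta list 24 of 36 rose and 1, Smad2, fell, a call lost in 14 of 32 alternatives (list median 0.666; 25, 1 and 0.446 without DKO replicate 3). Tgfb2, a ligand, rose from 0.70, 0.53, 0.47 and 0.44 to 3.1, 3.09, 3.85 and 2.71 (6.3-fold, limma adjusted p 5.96e-08) and Tgfb3 by 0.98, while Tgfb1 differed by 0.014 and was not called. The receptors Tgfbr1 (0.53) and Tgfbr2 (0.67) rose, and so did the thrombospondins Thbs1, from -2.42, -2.15, -2.35 and -2.41 to -1.40, -1.57, 0.92 and -0.64, and Thbs4 (1.61). Of 23 matrix proteases and inhibitors 16 rose and 2 fell (14 and 2 without DKO replicate 3). Timp1, a metalloproteinase inhibitor, rose from 0.59, 0.69, 0.88 and 0.26 to 2.71, 3.13, 5.39 and 2.13, highest on replicate 3 (log2 2.73, and 2.05 without it), and Mmp3, a metalloproteinase, from -1.25, -2.05, -1.62 and -2.23 to 0.77, 0.18, 1.21 and -0.37.

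Chemokines and cytokines were higher for 22 of 37 and lower for 2 (median 0.685; 22, 2 and 0.488 without DKO replicate 3). Tnfrsf12a, the TWEAK receptor, rose from 3.71, 4.68, 3.95 and 4.27 to 5.82, 6.03, 6.58 and 6.19 (limma adjusted p 1.73e-06). Ccl2 (1.42), Ccl8 (1.84), Cxcl10 (1.73), Socs3 (1.85), the feedback inhibitor of cytokine receptors, and Osmr (1.34), the oncostatin M receptor, rose. Il15 fell from 2.90, 3.07, 3.15 and 3.17 to 2.44, 1.90, 1.75 and 2.12 and Tnf fell by 0.72. Calls of interferon response genes varied with the setting. Of 33, 4 were called higher (Ddx58, Ifit1, Bst2 and Ifit2) and none lower, a share below the 47.0% of all genes. The number called higher was 0 to 20 across the 32 alternatives and 17 without DKO replicate 3. The list median on that array was -0.537, against 0.361 to 0.541 on the other DKO arrays and -0.162 to 0.339 on the AKT1 KO arrays. Ifit2, an interferon-induced antiviral protein, read -0.61, -0.80, -0.55 and -0.59 in the AKT1 KO and 0.76, 0.56, -0.13 and 0.64 in the DKO, with a control mean of -1.48. Bst2 read 2.73, 2.88, 1.53 and 2.87 in the DKO against 1.15, 1.35, 2.59 and 1.28, so the groups overlapped at DKO replicate 3 and AKT1 KO replicate 3, and it lost its call in 11 of 32 alternatives.

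**Figure D4:**
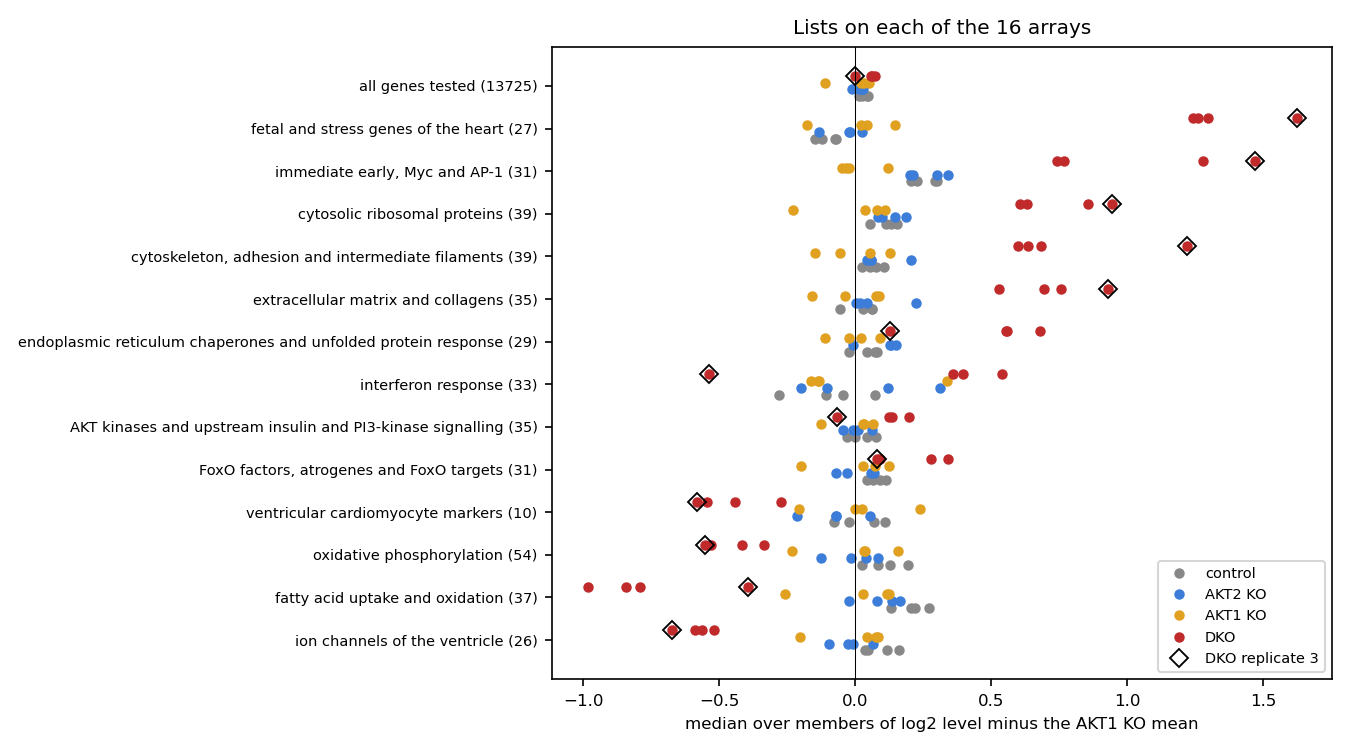
Median over the members of a list of the log2 level minus the AKT1 KO mean (x axis) on each of the 16 arrays, for 13 lists and all genes tested (rows, with member numbers); colours are the 4 groups and the diamond marks DKO replicate 3. That array is farthest out for fetal and stress genes (1.62) and lies apart from the other DKO arrays for the interferon response (-0.537) and endoplasmic reticulum lists (0.126).

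Cytoskeleton and adhesion genes rose for 30 of 39 and fell for 1, the integrin Itgb6 (median 0.882; 30, 2 and 0.645 without DKO replicate 3). The tubulins of this list were called higher: Tuba1a (1.37), Tuba1b (1.35), Tuba1c (1.41), Tubb2b (1.30), Tubb5 (1.03), Tubb6 (1.08) and Tubb2a, from 3.29, 3.55, 3.63 and 3.24 to 4.41, 4.36, 4.65 and 4.79. Tuba8 (-0.49), in the list of fetal and stress genes, was not called. These are near copies, and shared signal between their probes is possible. Krt18, a keratin, rose from -1.23, -1.01, -1.45 and -1.48 to 1.65, 1.26, 2.23 and 1.06, and Cd44 (1.35), S100a4 (1.58) and Vim (0.77) rose too.

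The following lists also had shares called near or below that of all genes. Autophagy and proteasome genes rose for 15 of 39 and fell for 4, with Sqstm1 (0.89) and Psmd4 (0.94) among the rises and Becn1 (-0.059) and Atg5 (-0.29) not called. Cell death and p53 targets rose for 12 of 34 and fell for 2. Bax, a pore-forming death protein, rose from 1.34, 1.43, 1.50 and 1.31 to 1.90, 2.04, 2.16 and 2.16, the survival gene Bcl2l1 rose by 1.32, and Ccng1 fell from 4.73, 5.08, 4.77 and 5.04 to 3.68, 3.49, 3.08 and 3.58. Adrenergic and cyclic nucleotide genes rose for 8 of 29 and fell for 7. Grk5, a receptor kinase, rose from 0.23, 0.30, 0.55 and 0.17 to 1.79, 1.67, 2.26 and 1.63, Prkar1a, a regulatory subunit of protein kinase A, from 3.49, 4.08, 3.76 and 3.99 to 5.34, 5.60, 4.84 and 5.52, and Adra1b fell by 1.42, with Adrb1 (-0.17) not called. Calcineurin and hypertrophy genes rose for 7 of 34 and fell for 8, circadian genes for 5 and 3 of 22 (4 and 5 without DKO replicate 3), and cell cycle genes for 3 and 4 of 23 (2 and 7 without DKO replicate 3). Angiogenic factors rose for 6 of 31 and fell for 6 (12 and 7 without that array), with Fgf16 (-1.75) and Apln (-1.56) falling and Nrg1 (1.13) rising.

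Markers of some cell types moved with the groups, beside 47.0% called among all genes, and their part in the lists above was not tested. The share called was near that of all genes for macrophage and monocyte and for skeletal muscle markers. It was below it for endothelial, erythroid, mesothelial, neutrophil and lymphocyte markers. The apex carried its ventricular cardiomyocyte markers at a summed level (log2 of their summed signal) of 11.8 to 12.3 in the AKT1 KO and 11.5 to 11.8 in the DKO, with 8 of 10 called lower and none higher. Fibroblast markers summed to 8.20 to 8.52 and 8.81 to 9.0, with 8 of 10 higher, among them Pdgfra (0.64) and Dpt (0.62), while Tcf21 (0.35) was called without DKO replicate 3 (0.51, limma adjusted p 0.00333) and not with it. Of 14 macrophage and monocyte markers 7 rose and none fell (5 and 1 without DKO replicate 3), but their sums overlapped (5.88 to 6.32 and 5.90 to 6.40). Csf1r rose from 3.68, 3.71, 3.83 and 3.85 to 4.11, 4.45, 4.05 and 4.0, a call lost in 4 of 32 alternatives. Endothelial markers rose for 3 of 10 (6.84 to 7.10 and 6.95 to 7.19): Vwf (0.74), Esam (0.41), which lost its call within each slide, and Pecam1 (0.25). Pecam1 lost its call in 23 of 32 alternatives and was at 0.16 without DKO replicate 3 (limma adjusted p 0.107). Smooth muscle and pericyte markers rose for 5 and fell for 2 of 10, 7 and 2 without DKO replicate 3 (7.33 to 7.76 and 7.80 to 7.97). No neutrophil marker of 4 and no lymphocyte marker of 6 was called by limma, and 0 had an unadjusted p under 0.05.

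Atrial and conduction markers summed to 8.05 to 8.48 in the AKT1 KO and 9.10 to 9.46 in the DKO, against 6.52 to 7.15 in the control. Nppa dominates this sum: of 8 markers 2 rose (Nppa and Dkk3, from -1.62, -1.06, -1.04 and -1.37 to 0.84, 0.26, 0.60 and -0.19) and 3 fell (Mybphl, Hcn4 and Stard10), and the atrial light chains Myl7 (0.52, and 1.25 without DKO replicate 3) and Myl4 (0.54) were not called. Skeletal muscle markers, which share Ckm and Acta1 with the heart, summed to 6.09 to 7.06 and 4.98 to 5.65, with 3 of 6 lower (Ckm, Tnni2 and Atp2a1) and none higher (4 and 1 without DKO replicate 3). Schwann cell and neuron markers went both ways, 5 of 9 higher and 2 lower: S100b (1.0) and Uchl1 (0.88) rose, while the noradrenaline-synthesis genes of sympathetic nerves fell, Dbh from 1.05, 1.49, 1.60 and 1.29 to -0.95, -1.02, -1.12 and -0.46 and Th from -0.49, -0.20, 0.25 and 0.01 to -1.0, -1.34, -1.17 and -0.85 (limma adjusted p 5.36e-07 and 6.51e-05). Erythroid markers had 1 of 7 higher (2 without DKO replicate 3), Rhd (2.37), with the haemoglobin genes not called. Adipocyte markers had 2 higher and 2 lower of 6 and mesothelial markers 1 higher of 5, Aldh1a2 (1.15, and 0.65 without DKO replicate 3).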

How the data were processed

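RNA of 16 heart apices (4 hearts a group) was measured on 1-colour Agilent arrays, read with Agilent Feature Extraction 12.0.3.1 per the file headers. The deposited intensity is that program's processed signal, background-subtracted per the file headers. The authors' deposited value table holds log2 values that, as its numbers show, had been made comparable across arrays and then set relative to the probe's own median; it served as an alternative. From the intensities, log2 values were taken relative to each array's 75th percentile over 59305 non-control spots. Replicate spots were averaged, and 118 of 56605 distinct probes were left out for outlier flags. Symbols came from unversioned RefSeq accessions in a gene table of GRCm38.p6 (32994 probes matched). Probes had to be well above background on all 4 arrays of a group, and the brightest of 19340 such probes stood for each of 13725 genes, 13566 of them measured on all 4 DKO or all 4 AKT1 KO arrays. A fold is given as at least a value where 1 group had no array well above background: it sets the bright group's mean against the higher, on each array, of the dim probe's signal and the lowest signal among probes well above background.

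All groups were fitted together with limma 3.58.1 (R 4.3.3; 12 residual and 2.54 prior degrees of freedom), with no covariate and Benjamini-Hochberg adjustment over all genes, and the procedure was tested on simulated data. The number of arrays limits the precision. Replicates are separate hearts per the labels. The gene lists (36 pathways, 13 cell markers) and the members described were chosen with earlier results of these data known. Named genes are Akt1 and Akt2, the 15 largest rises and the 15 largest falls among called genes without overlap, up to 4 called list members by adjusted p together with members that define a list's role, and the 5 largest differences of the steps each way. Symbols of predicted genes and clones were passed over, and 67 further genes, and list members given by their change alone, were named after their values were seen; some genes that these rules pick are not reported here. Alternatives changed the background correction, scaling, filter, probe rule, weights, prior, arrays fitted and slide, and left out each array and the genes of chromosome 7. Promoters are RefSeq's (GRCm38.p6).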

Additional observations from a re-analysis of the deposited data

Results flagged for a closer look

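In the test of the difference between the Akt2 steps (DKO over AKT1 KO against AKT2 KO over control), limma called 3566 genes. Among the largest differences of genes with arrays well above background in all 4 groups were those of Gdf15 (4.90) and Ccn2 (3.95) upward and of Esr1 (-4.34), Efnb3 (-4.17) and Adcy1 (-3.95) downward. Among 7056 probes that passed the filter on dim probes but have no gene symbol here, and so enter no comparison above, 2336 were called in DKO against AKT1 KO (33.1%), 1049 higher and 1287 lower.

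An array was set apart from the other 3 of its group when its gap to the nearest, as a share of the group's range, was above Dixon's critical value for 4 samples, which chance alone gives in about 1 of 20 groups. Of 516 pairs of a named gene and a group, 52 had such an array: 27 were DKO replicate 3, 13 AKT1 KO replicate 1, 5 DKO replicate 4 and 4 DKO replicate 1, with 1 each for AKT1 KO replicates 2, 3 and 4 and 0 for DKO replicate 2. The genes were picked in part by their values, 67 after these were seen, so the rate of 1 of 20 does not apply to these counts.

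For DKO replicate 3 the gap share was 0.835 for Igsf1, 0.937 for Pkm, 0.887 for Gpt2, 0.866 for Fkbp4, 0.855 for Rpl23, 0.939 for Uchl1, 0.896 for Perp, 0.854 for Tnni2, 0.851 for Des, 0.869 for Abcc9, 0.89 for Rxrg, 0.933 for Sirt3, 0.886 for Bst2, 0.852 for Fabp4 and 0.871 for Pecam1. It was 0.872 for Slc2a4, 0.904 for Hspa5, 0.854 for Creld2, 0.871 for Sertad3, 0.875 for Ankrd2, 0.876 for Lox, 0.896 for Hmox1, 0.843 for Ucp2, 0.856 for Ccn4, 0.836 for Pfkfb2, 0.954 for Tbc1d4 and 0.878 for Esrra. These genes come from metabolism, folding, matrix and cell markers alike, so among the named genes the array stands apart in more than 1 group of genes.

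For AKT1 KO replicate 1 the gap share was 0.873 for Akt2, 0.923 for Mrgprh, 0.849 for Tln1, 0.85 for Pik3cb, 0.854 for Kcnh2, 0.92 for Ckm, 0.872 for P4hb, 0.85 for Gabarap, 0.87 for Atp2a1, 0.886 for Ciart, 0.907 for Synpo2l, 0.839 for Pcna and 0.949 for Atp2a2. For DKO replicate 4 it was 0.893 for Crybb1, 0.916 for Myom2, 0.839 for Ankrd1, 0.842 for Syvn1 and 0.867 for Hspa1b. For DKO replicate 1 it was 0.961 for Foxo6, 0.89 for Timp2, 0.916 for Klk1b22 and 0.927 for Klk1b3. Mamstr (0.864, AKT1 KO replicate 4), Cenpa (0.878, AKT1 KO replicate 2) and Bst2 (0.865, AKT1 KO replicate 3) complete the set.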

How the results depend on the processing

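Across 32 alternatives limma called 4195 genes (2397 higher, 1798 lower) where the DKO and AKT1 KO arrays were fitted alone and 2715 (1612 and 1103) within slide 2, against 6450. The rest lay within 1.5 times, from 5660 to 8203, the highest with array quality weights, and 5997 within slide 1. Leaving out 1 array at a time gave 5660 to 7365 genes (3277 to 4300 higher, 2371 to 3065 lower). The difference of the steps, 3566 genes, was called for 6155 with array quality weights and for 188 within slide 2, and for 2890 to 4808 with 1 array left out. The 18 genes of AKT2 KO against control were 93 with array quality weights, 11 within slide 1 and 3 within slide 2. They were 0 without the genes of chromosome 7, and 14 to 37 with 1 array left out, 37 without DKO replicate 3. Of the 12632 genes off chromosome 7, 345 had an unadjusted limma p under 0.05. That is a smaller share than the 0.05 that chance alone would give. Calls of list members were 701, 352 within slide 2 and 622 to 751 with 1 array left out. The cause of these moves was not tested, except that fewer arrays or genes enter the slide, group and chromosome alternatives.

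Of 258 named genes 241 were called, 232 to 243 with 1 array left out. In every alternative 175 stayed called, and 66 lost their call in at least 1 (59 within slide 2, 18 within slide 1, 18 with those arrays alone, 11 without the filter on dim probes). No called gene changed sign, and 6 that were not called (Akt1, Foxo1, Fbxo32, Ftl1, Rps2 and Tgfb1) did in at least 1 alternative. The share of called genes that were higher was 56.8%, and 51.9% to 59.4% in the alternatives. Replicate numbers did not pair the samples: the correlations of same-numbered deviations were -0.119, 0.303, 0.0358 and 0.0632, and with the replicate number as a block 6499 genes were called (3572 higher, 2927 lower). Genes without an array well above background in a group have only a bound on their fold.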
